A study of Homo sapiens with 6 samples.

Results

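The genes described here are the subunits and helpers of mitochondrial protein import together with the CHCHD proteins, taken as every row of the deposited array table whose gene symbol begins with TIMM, TOMM or CHCHD, or equals ROMO1. The rule found 33 of 34694 rows, and 24 of the 33 carry a cellular component annotation in the same table that names the mitochondrion. The rows came from total RNA of 6 U2OS clones (U2OS is a cell line from a human osteosarcoma), hybridised to Illumina bead arrays with 1 array per clone. All clones were grown untreated in DMEM with 10% FBS. The study compared 3 clones whose MBTD1 gene, which encodes a chromatin reader of the TIP60 acetyltransferase complex, was inactivated with CRISPR/Cas9 against 3 control clones. The titles call the controls "control KO" and the design text calls them wild type, so how the controls were made is not settled. Each array is a single clone, and the labels do not say whether the clones came from separate cultures, so p-values cover the spread among these 6 arrays, which may be technical.

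Nearly all mitochondrial proteins are made in the cytosol and imported. The TOM complex (the TOMM proteins) is the entry gate of the outer membrane, the TIM23 complex moves proteins with a presequence through the inner membrane, and the TIM22 complex inserts carriers into it, fed by small TIMM chaperones of the intermembrane space. Many CHCHD proteins are small proteins of that space that carry twin cysteine motifs and are trapped there by the oxidative folding receptor CHCHD4. Others sit in the cristae organising system (MICOS), in the mitochondrial ribosome or in cytochrome c oxidase assembly.

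In the MBTD1 knockout clones 3 of these genes rose and 0 fell. ROMO1, a small inner membrane protein of the TIM23 translocase, rose 3.10-fold. CHCHD5, a small protein with twin cysteine motifs, rose 2.25-fold. TIMM8B, a relative of the intermembrane space chaperone TIMM8A, rose 1.70-fold. They are 3 of 28 members that could be tested, beside 1.2% of all 13145 tested rows called higher and 0.373% called lower by limma at a Benjamini-Hochberg adjusted p under 0.05. The other 25 tested members did not pass. Over the 28 members the log2 difference, knockout minus control, was positive in 15 and negative in 13, with a median of 0.06 against -0.02 over all tested rows. The positive count includes TIMM23B, which passed the detection filter through the knockout clones only. In 7 members every knockout clone was above every control clone and in 7 every knockout clone was below, where 12.2% and 13.7% of all tested rows separate in this way. These counts are after normalization. In the deposited intensities the 7 higher members also separated, as did TIMM23 and TOMM20 among the lower. TOMM34, TOMM40, TIMM22, CHCHD4 and CHCHD7 overlapped between the groups there. CHCHD2, CHCHD9, TOMM5 and TIMM23B had every knockout clone above every control in the deposited intensities, but overlapped after normalization. The share of all tested rows that separate before normalization was not counted. The calls depended on the processing and on single clones. No member passed with the default background fit, which called 0 of 13145 rows, and 0 members passed in the authors' deposited log2 values, with an offset of 50 or with no detection filter. Without control 1 the count was 6 members higher, without control 2 it was 1, without control 3, knockout 2 or knockout 3 it was 0, and without knockout 1 it was 2.

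Among the short promoters available, the stretch before the start is shown for the called ROMO1 and CHCHD5 and, for contrast, for TOMM7 and TOMM20, TOM subunits with log2 differences of opposite sign. Each sequence holds the 150 bases before the RefSeq gene start in GRCh38.p14, written 5′ to 3′ along the gene's strand. Capitals mark a match to the ETS factor motif CCGGAAG or to the core of the NRF1 motif, GCATGCGC. NRF1 is an activator of many nuclear genes for mitochondrial proteins.
ROMO1 promoter, chr20:35699255-35699404, plus strand: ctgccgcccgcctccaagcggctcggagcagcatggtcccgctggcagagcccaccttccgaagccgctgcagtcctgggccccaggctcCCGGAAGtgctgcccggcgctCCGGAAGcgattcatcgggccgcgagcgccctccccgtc
CHCHD5 promoter, chr2:112584297-112584446, plus strand: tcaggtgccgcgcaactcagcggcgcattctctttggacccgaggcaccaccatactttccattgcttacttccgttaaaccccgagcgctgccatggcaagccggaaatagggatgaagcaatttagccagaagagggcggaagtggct
TOMM7 promoter, chr7:22822850-22822999, minus strand: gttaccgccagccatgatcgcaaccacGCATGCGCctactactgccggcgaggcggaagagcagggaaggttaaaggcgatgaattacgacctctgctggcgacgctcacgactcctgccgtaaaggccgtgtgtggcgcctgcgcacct
TOMM20 promoter, chr1:235128838-235128987, minus strand: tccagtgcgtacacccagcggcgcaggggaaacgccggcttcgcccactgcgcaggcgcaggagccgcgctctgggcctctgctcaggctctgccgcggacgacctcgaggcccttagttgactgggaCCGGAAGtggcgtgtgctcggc
The ROMO1 stretch holds 2 ETS matches, the TOMM20 stretch 1, the TOMM7 stretch 1 NRF1 core, and the CHCHD5 stretch none of these letters. Promoters of 29 of the 33 members were in the RefSeq table, those of CHCHD7, CHCHD9, TIMM8B and TOMM5 being the others. Searched on both strands over 300 bases (250 before and 50 after the start), the ETS letters were in 13 of 29 member promoters (44.8%), against 10.7% of all 27305 promoters. The NRF1 core was in 3 of 29 (10.3%), against 3.27% of all promoters. The YY1 motif AAGATGGC was in 2 of 29 (6.9%), against 3.03% of all promoters. Among tested genes, the ETS letters were in 12 of 24 member promoters against 19.9% of 8192, the NRF1 core in 3 of 24 against 5.97%, and the YY1 motif in 0 of 24 against 5.8%. The motifs share no overlapping match in the printed stretches. CHCHD5 has 1 ETS match, 29 bases after its start and so outside the printed stretch. These are matches of letters, with no binding measured here.

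The 6 arrays had a median bead intensity of 84.7 to 87.2. That is close to the fitted background mean of 81.7 to 84.2 and so says little of the signal. Rows above background (detection p under 0.05) numbered 12982 to 13511, with 20 to 22 beads per value at the median. The groups differed in the background SD of the default fit, at 114 to 125 in the controls and 149 to 164 in the knockouts. The cause was not tested. Between 27 and 29 members were above background on each array. The control arrays correlated with each other at r = 0.983 to 0.993 over all tested rows, the knockout arrays at 0.975 to 0.984, and arrays of different groups at 0.96 to 0.984, which describes rows, not replicates. MBTD1 itself gave log2 levels of 5.06, 5.05 and 5.05 in controls 1 to 3 and of 5.17, 4.99 and 4.62 in knockouts 1 to 3. Its difference was -0.13 (SE 0.15, limma adjusted p = 0.676, 2-sided exact permutation p = 0.7 where 0.1 is the smallest possible). Neither the edited position nor that of the probes was known here, so its RNA level does not check the labels. Of markers fixed for the cell type, 5 of 7 mesenchymal and bone genes passed the detection filter, against 1 of 5 epithelial and 1 of 7 blood and endothelial genes, and 0 of these genes passed the test. The 3 controls were not alike for these genes. Control 1 lay above control 2 in 16 of 28 members, with control 3 between them in 14 of those. The values of control 1 minus control 2 stand beside the results below, and their part in each result was not tested.

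**Figure D1:**
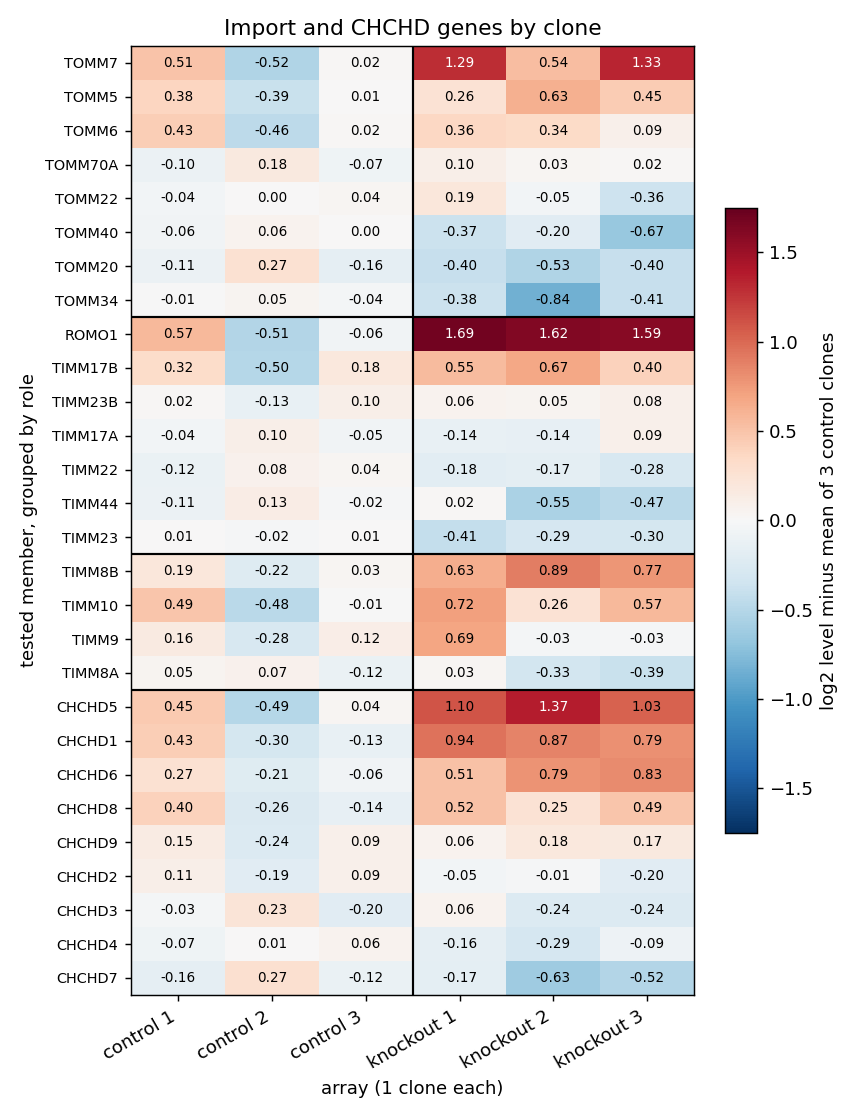
Heat map of the 28 tested members (rows, grouped by role) on the 6 arrays (columns), where colour and printed value are the log2 level minus the mean of the 3 control clones. ROMO1 has the largest deviations in the knockout clones, and control 1 lies above control 2 in 14 of the 15 members with a positive difference.

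The outer membrane set held 10 rows, of which 8 were tested. None passed the test, 4 differences were positive and 4 negative, and the median was -0.01. TOMM7, a small subunit of the TOM complex that also helps to hold PINK1 at the outer membrane, had log2 levels of 9.97, 8.94 and 9.48 in the controls and 10.75, 10.00 and 10.79 in the knockouts. All 3 knockout clones were above the 3 controls, knockout 2 by the least. The difference of 1.05 (SE 0.28, 95% interval 0.41 to 1.70) missed the threshold with a limma adjusted p of 0.0903. Control 1 exceeded control 2 by 1.03, about as much as the groups differed, and the difference was 1.31 without control 1 (limma adjusted p = 0.0406) but 0.79 without control 2 (0.256). As deposited, the TOMM7 bead intensities, averages of several probes, were 1022, 562 and 688 against 2152, 1180 and 2063.

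TOMM34, a cytosolic co-chaperone that binds import precursors and is no TOM subunit, had the lowest difference of the tested members as reported. It was not the lowest with arrays scaled to a common median, with cyclic loess or without knockout 2. Its levels were 10.51, 10.57 and 10.48 in the controls and 10.14, 9.68 and 10.11 in the knockouts. The groups did not overlap and knockout 2 was lowest, with a difference of -0.54 (SE 0.14, interval -0.87 to -0.21, limma adjusted p = 0.0885). With a common median the difference was -0.25 (adjusted p = 0.505 in limma), above CHCHD7 at -0.44. With cyclic loess it was -0.38, above CHCHD7 at -0.42, and without knockout 2 it was -0.39, above TOMM40 at -0.52. The controls differed little here, by -0.06 between control 1 and control 2. In the deposited intensities, before normalization, knockout 1 (1381) lay within the controls (1279 to 1424). TOMM20, the receptor for presequences whose promoter is printed above, had levels of 8.56, 8.93 and 8.51 in the controls and 8.26, 8.14 and 8.26 in the knockouts. Its knockout clones were close together and below every control, with a difference of -0.45 (SE 0.14, interval -0.76 to -0.13, limma adjusted p = 0.125). TOMM40, the pore of the complex, also did not overlap and had a difference of -0.41 (adjusted p = 0.149 in limma), which was -0.14 with a common median.

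The remaining TOM members overlapped between the groups after normalization. In the deposited intensities TOMM5 did not, at 592, 404 and 455 in the controls against 628, 768 and 679 in the knockouts. TOMM5 and TOMM6, small subunits of the complex, had differences of 0.44 and 0.26, and TOMM22, its central receptor, of -0.07. TOMM22 turned to 0.11 with arrays scaled to a common median, to 0.028 with cyclic loess and to 0.070 without knockout 3. TOMM70A (now TOMM70), the receptor for carrier proteins, was the member of this set that moved least. Its levels were 8.16, 8.45 and 8.20 in the controls and 8.37, 8.30 and 8.28 in the knockouts, a difference of 0.05 with an interval of -0.22 to 0.32. TOMM20L and TOMM40L, relatives of TOMM20 and TOMM40, were above background on 1 of 6 arrays each and were not tested.

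**Figure D2:**
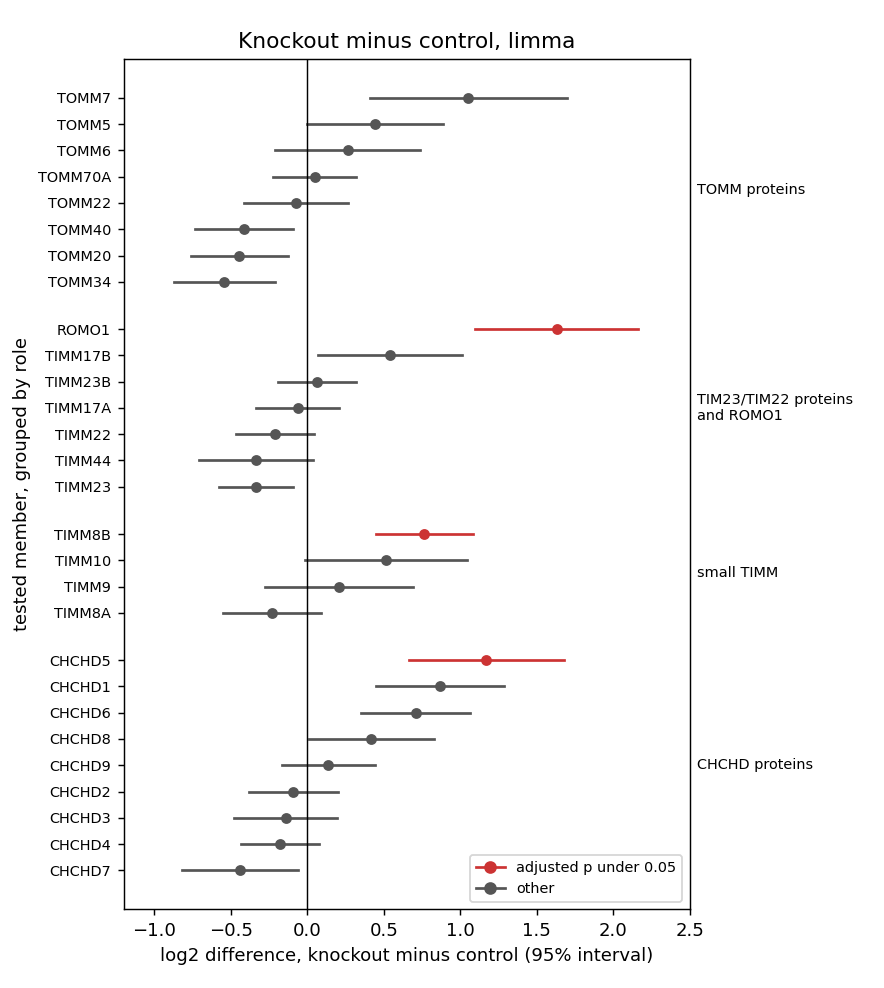
Log2 difference, knockout minus control, of each tested member with its 95% interval from limma (points and bars), grouped by role, with members past the threshold in red. The called members ROMO1, CHCHD5 and TIMM8B lie to the right, and the outer membrane members spread from -0.54 (TOMM34) to 1.05 (TOMM7).

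Of 8 rows for the inner membrane translocases and ROMO1, 7 were tested and 1 passed, with 3 positive and 4 negative differences and a median of -0.06. TIMM23B, among the positive, was above background in the knockout clones only. ROMO1 is also known as a modulator of reactive oxygen species and is the counterpart of yeast Mgr2, which guards the lateral exit of the TIM23 channel. Its log2 levels were 9.11, 8.04 and 8.48 in the controls and 10.23, 10.16 and 10.13 in the knockouts. The knockout clones lay within a narrow band above all controls, with means of 10.17 ± 0.05 (SD, n = 3) against 8.54 ± 0.54 (SD, n = 3). The difference was 1.63 (SE 0.24, interval 1.10 to 2.17, limma adjusted p = 0.0195), and the spread lay in the controls, control 1 exceeding control 2 by 1.07. Deposited intensities were 584, 343 and 391 in the controls and 1457, 1301 and 1287 in the knockouts, with bead standard errors from 13.9 to 59.4. Leaving out control 3, knockout 2 or knockout 3 took the adjusted p to 0.132, 0.0595 and 0.0739 in limma, with differences of 1.60, 1.64 and 1.65. The call was also lost with the default background fit (0.0945), in the deposited log2 values (0.0573), with an offset of 50 (0.0531) and without the filter (0.110).

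The other subunits of the TIM23 complex did not pass. TIMM17B, a partner of the channel protein TIMM23, had levels of 7.23, 6.41 and 7.09 in the controls and 7.46, 7.58 and 7.31 in the knockouts. Control 2 was lowest and the groups did not overlap, with a difference of 0.54 (SE 0.21, interval 0.07 to 1.01, limma adjusted p = 0.187) beside 0.82 between control 1 and control 2. For TIMM17A, its paralog, the levels were 4.72, 4.87 and 4.71 against 4.63, 4.62 and 4.86, which overlap, and the difference was -0.06 (interval -0.33 to 0.21). TIMM23, the channel, had 9.46, 9.43 and 9.46 in the controls and 9.04, 9.16 and 9.15 in the knockouts. Its controls were nearly identical and all knockout clones lower, yet the difference of -0.34 (SE 0.11, interval -0.58 to -0.10) had a limma adjusted p of 0.127 and was -0.16 with a common median. TIMM22, the carrier insertase, also did not overlap (-0.21), and TIMM44, which ties the import motor to the channel, did (-0.33).

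TIMM23B, a near copy of TIMM23, was above background in 0 of 3 control clones and in 3 of 3 knockout clones by the deposited detection p-values. The row averages several probes, and how its detection p was formed from them is not known. What this says of a single probe is therefore not known either. Levels after normalization were 5.12 to 5.34 in the controls and 5.29 to 5.32 in the knockouts, which overlap, and no fold is given. Deposited intensities were 103, 104 and 105 in the controls and 107, 108 and 108 in the knockouts. Signal from TIMM23 and TIMM23B may be shared, since the copies are close in sequence. TIMM50, the presequence receptor of the TIM23 complex, was above background on 0 of 6 arrays and was not tested.

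The small TIMM chaperones, which carry hydrophobic precursors across the intermembrane space, gave 4 tested rows of 5. One rose, 3 differences were positive and 1 negative, and the median was 0.36. TIMM8B had log2 levels of 5.50, 5.09 and 5.34 in the controls and 5.94, 6.20 and 6.08 in the knockouts. The groups were separate, at 5.31 ± 0.21 against 6.08 ± 0.13 (SD, n = 3 each), with a difference of 0.77 (SE 0.14, interval 0.45 to 1.08, limma adjusted p = 0.0409) beside 0.41 between control 1 and control 2. The values rest on 14, 16 and 20 beads in the controls and on 8, 19 and 16 in the knockouts. TIMM8B was a dim row, with deposited intensities of 109, 103 and 105 against 129, 143 and 135 where background averaged 81.7 to 84.2. Its fold therefore depends on the background correction: the log2 difference was 0.33 in the authors' deposited log2 values and 0.07 with the default background fit. The call was lost in both, as with an offset of 50, without the filter and with the replicate block (adjusted p of 0.0697, 0.115, 0.0639, 0.110 and 0.0826 in limma). Leaving out control 2, control 3, knockout 2 or knockout 3 gave adjusted p of 0.104, 0.182, 0.0986 and 0.113 in limma.

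TIMM10, which forms a hexamer with TIMM9, had 7.55, 6.59 and 7.05 in the controls and 7.78, 7.32 and 7.63 in the knockouts. Control 1 lay above knockout 2, so the groups overlapped, and the difference of 0.52 had a limma adjusted p of 0.256. TIMM9 had 7.10, 6.66 and 7.06 against 7.63, 6.91 and 6.92, with knockout 1 alone above all controls. Its difference of 0.21 turned to -0.029 without knockout 1, whose TIMM9 value rests on 9 beads. TIMM8A, the gene mutated in deafness-dystonia syndrome, had 6.77, 6.79 and 6.59 against 6.74, 6.39 and 6.33. These values overlap, and the difference was -0.23 (limma adjusted p = 0.402), with a sign opposite to that of its paralog TIMM8B. TIMM13, the partner of TIMM8A, was above background on 1 array and was not tested.

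**Figure D3:**
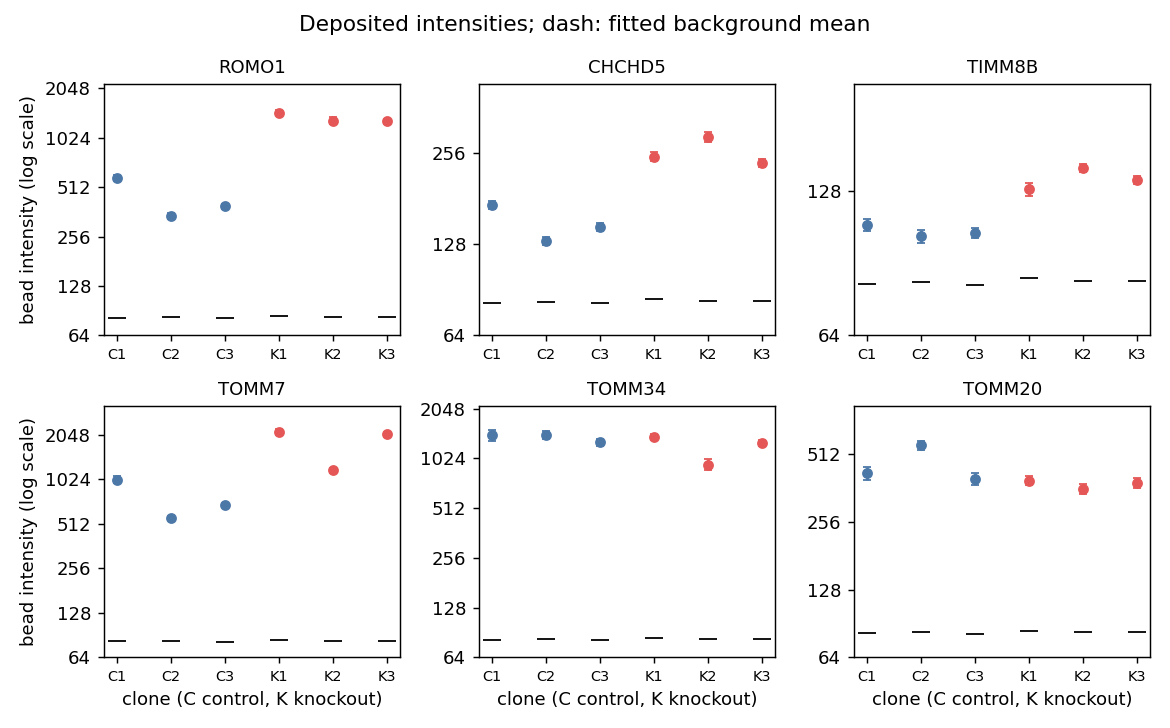
Deposited bead intensities (log axis, before any background correction or normalization) of ROMO1, CHCHD5, TIMM8B, TOMM7, TOMM34 and TOMM20 in control (C1 to C3, blue) and knockout clones (K1 to K3, red), with bars of 1 bead standard error and dashes at the fitted background mean. ROMO1 runs from 343 to 584 in the controls and from 1287 to 1457 in the knockouts, while TIMM8B runs from 103 to 143 over a background mean of 81.7 to 84.2.

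Of 10 CHCHD rows 9 were tested, 1 rose, 5 differences were positive and 4 negative, and the median was 0.14. CHCHD5 had log2 levels of 6.83, 5.88 and 6.41 in the controls and 7.48, 7.74 and 7.41 in the knockouts. Every knockout clone was above every control, at 7.54 ± 0.18 against 6.37 ± 0.48 (SD, n = 3 each). The difference was 1.17 (SE 0.22, interval 0.66 to 1.68, limma adjusted p = 0.0440), beside 0.95 between control 1 and control 2. Its deposited intensities were 173, 131 and 146 against 249, 290 and 238. The call was lost when any single clone but control 1 was left out, with limma adjusted p of 0.0790 without control 2, 0.184 without control 3 and 0.0628, 0.109 and 0.110 without knockouts 1, 2 and 3. It was also lost with the default background fit, where the difference was 0.31 (adjusted p = 0.138), and in the deposited log2 values, where it was 0.75 (0.0802). An offset of 50 (0.0757), no filter (0.156) and the replicate block (0.0773) ended it too.

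The next differences in size among the CHCHD genes were in members of known assemblies. CHCHD1, a protein of the small subunit of the mitochondrial ribosome, had 6.33, 5.59 and 5.77 in the controls and 6.84, 6.77 and 6.69 in the knockouts. The groups were apart, with a difference of 0.87 (SE 0.18, interval 0.45 to 1.29) and a limma adjusted p of 0.0559. CHCHD6, a MICOS subunit at the cristae junctions, had 6.45, 5.96 and 6.12 against 6.68, 6.96 and 7.00. Here too all knockout clones were higher, with a difference of 0.71 (SE 0.16, interval 0.35 to 1.06, limma adjusted p = 0.0589). Without control 1 both passed, with differences of 1.08 and 0.84 (limma adjusted p = 0.00696 and 0.0255). Without control 2 they were at 0.72 and 0.60 (limma adjusted p = 0.157 and 0.175), and with the default background fit both were at 0.13. CHCHD3, the other CHCHD subunit of MICOS, had a difference of -0.14 with overlapping groups.

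CHCHD4, the receptor that oxidises incoming cysteine-rich proteins, had levels of 8.17, 8.26 and 8.31 in the controls and 8.09, 7.96 and 8.16 in the knockouts. The knockout clones were all lower by a small amount, -0.18 (limma adjusted p = 0.418). CHCHD7, another small twin cysteine protein, did not overlap either and had -0.44 (limma adjusted p = 0.187). CHCHD8, an assembly factor of cytochrome c oxidase now called COA4, overlapped at 0.42. CHCHD2, linked to inherited Parkinson disease, was bright and, after normalization, close between the groups, at 11.93, 11.63 and 11.91 against 11.77, 11.81 and 11.62. Its difference of -0.09 (interval -0.38 to 0.20) turned to 0.38 with a common median and to 0.17 with cyclic loess. Its deposited intensities were 3584, 2644 and 3211 in the controls and 4627, 4103 and 3682 in the knockouts, which do not overlap. CHCHD9, listed in the current annotation as the CHCHD2 pseudogene CHCHD2P9, had 0.14, and signal of the near-identical copies cannot be told apart here. The deposited CHCHD9 intensities did not overlap either, at 1800, 1367 and 1602 in the controls against 2226, 2177 and 2261 in the knockouts. CHCHD10, the paralog of CHCHD2, was above background on 0 of 6 arrays.

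The sign of the group difference went with the order of the controls. Of 15 members with a positive difference, 14 also had control 1 above control 2, and of 13 with a negative difference 11 had control 1 below control 2. Both quantities use the same control arrays, and the positive members include TIMM23B, above background in the knockout clones only. The counts are therefore a description, and they were not made over all tested rows. As medians of the deviation from the control mean, the 28 members stood at 0.08, -0.16 and 0.01 in controls 1 to 3 and at 0.08, 0.01 and 0.05 in knockouts 1 to 3. Genes of cytosolic ribosomal proteins, given for comparison, stood at 0.21, -0.23 and 0.04 and at 0.42, 0.25 and 0.33. Of these 85 tested genes 9 rose and 0 fell, beside 1.2% and 0.373% of all tested rows. Their median difference was 0.36, beside a median of 0.47 between control 1 and control 2, so this order is not particular to the members.

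Members also differed by the length of the gene, which the rule did not use. All 33 members and 84.5% of tested rows could be given a gene span, first to last base of the gene, from the RefSeq table of GRCh38.p14. The 13 tested members under 5 kb had a median log2 difference of 0.44, and all 3 called genes were among them, with spans of 1576 bp for ROMO1, 1957 bp for TIMM8B and 4594 bp for CHCHD5. The 10 members of 5 to 20 kb, TOMM20, TOMM34 and TOMM40 among them, had a median of -0.27. Longer members numbered 3 between 20 and 100 kb, with a median of 0.05, and 2 over 100 kb, with 0.28. The remaining tested rows had medians of 0.08 under 5 kb, 0.01 at 5 to 20 kb, -0.08 at 20 to 100 kb and -0.08 above, so that the classes from 5 kb upward differed in sign from the members. In these bins 4.44%, 1.06%, 0.223% and 0.177% of the rows were called higher. Control 1 exceeded control 2 by a median of 0.74 in the members under 5 kb and by -0.14 in those of 5 to 20 kb, and by 0.17 and 0.02 in the other rows of these bins. The part of gene length and of RNA quality in the calls was not tested. CHCHD6, over 100 kb long, and TOMM7, at 9876 bp, are positive members outside the shortest class.

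**Figure D4:**
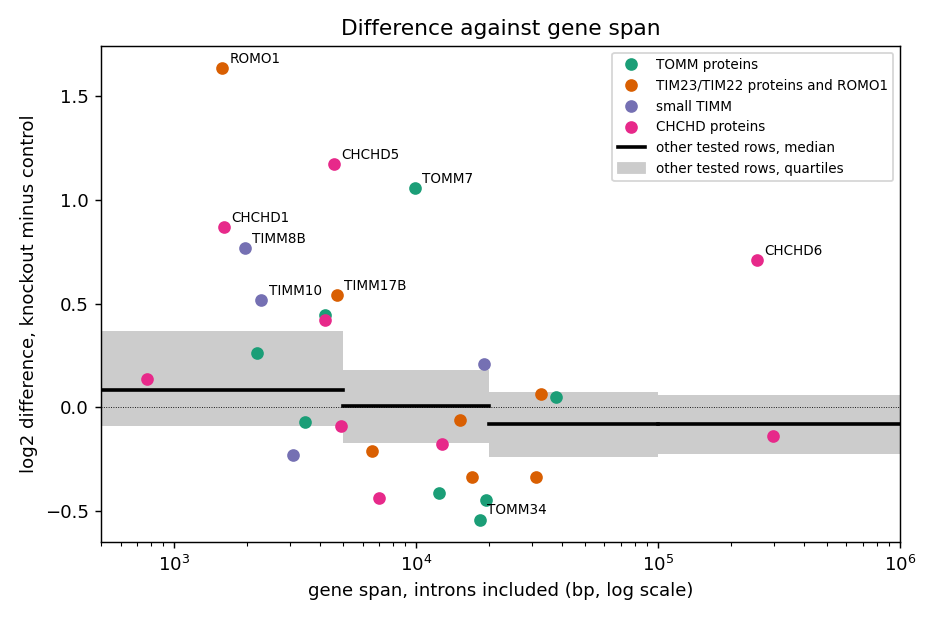
Log2 difference, knockout minus control, of each tested member against the span of its gene (log axis, base pairs), coloured by role, with the median (line) and quartiles (grey band) of the other tested rows in each span class. Members under 5 kb have a median of 0.44 and members of 5 to 20 kb a median of -0.27.

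Around the members, 80 gene names of neighbouring functions were listed, of which 71 were in the table and 67 were tested. Of these, 2 rose and 1 fell, beside 1.2% and 0.373% of all tested rows. There were 23 positive and 44 negative differences, with a median of -0.12. COX17, the copper chaperone of cytochrome c oxidase and a twin cysteine protein like the CHCHD set, had 9.25, 8.14 and 8.71 in the controls and 9.99, 10.04 and 9.98 in the knockouts. It rose 2.47-fold (limma adjusted p = 0.0410), with all knockout clones in a tight band above the controls, the arrangement seen for ROMO1. Of the 11 tested proteins of its kind outside the rule, 8 had positive differences, 1 passed and the median was 0.47, beside a median of 0.72 between control 1 and control 2. NDUFB7, a complex I subunit of this kind, had 1.26 (limma adjusted p = 0.0521).

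In MICOS, C19ORF70 (also QIL1) rose 2.42-fold, from 7.11, 6.04 and 6.85 to 7.97, 7.89 and 7.97 (limma adjusted p = 0.0430). Of the 5 MICOS genes tested beside CHCHD3 and CHCHD6, 1 passed, 3 differences were positive, and IMMT, the core subunit, had -0.26. AFG3L2, a subunit of the inner membrane m-AAA protease, fell 1.67-fold, from 8.32, 8.48 and 8.51 to 7.53, 7.83 and 7.72 (limma adjusted p = 0.0296). Its controls were close together and its knockout clones all lower. Of 10 tested mitochondrial chaperones and proteases 7 had negative differences, with a median of -0.16, while the co-chaperonin HSPE1 had 0.76 (limma adjusted p = 0.0710). All 3 calls were lost without control 3, with limma adjusted p of 0.182 for COX17, 0.162 for C19ORF70 and 0.173 for AFG3L2. The calls were also lost without knockout 2 (0.0986, 0.0986 and 0.0562) and without knockout 3 (0.113, 0.120 and 0.0954). COX17 and AFG3L2 missed the threshold without control 2 (0.0590 and 0.0931), and COX17 and C19ORF70 without knockout 1 (0.0605 and 0.0665). All 3 also missed it with the default background fit (0.141, 0.0853 and 0.0853), without the filter (0.151, 0.156 and 0.0770) and with the replicate block (0.0589, 0.0513 and 0.0513). COX17 and C19ORF70, but not AFG3L2, missed it in the deposited log2 values (0.0818 and 0.0732) and with an offset of 50 (0.0768 and 0.0732). With the default fit the difference of C19ORF70 was 0.46 in place of 1.28.

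None of the other import lists passed. In the sorting and assembly machinery, which builds outer membrane barrels such as TOMM40, 2 of 3 tested genes were negative: MTX3 had -0.63 (limma adjusted p = 0.0564) and SAMM50, its core, -0.53 (limma adjusted p = 0.0608). The 6 tested import motor genes had a median of -0.07, with MAGMAS, the regulatory subunit PAM16, at 1.08 (limma adjusted p = 0.0710) and HSPA9, the motor chaperone mortalin, at -0.58 (limma adjusted p = 0.181). The 6 processing peptidases had a median of -0.11, PMPCB at -0.37 and IMMP2L at 0.37. Of 5 tested import genes listed under other names the median was 0.08, with C18ORF55 at -0.39 and C19ORF52 at 0.17. OXA1L, the inner membrane insertase, had -0.08, and AIFM1, the partner of CHCHD4, -0.09.

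Genes of general mitochondrial functions were counted beside them. Of 19 tested markers of mitochondrial content, such as metabolic enzymes, carriers and ATP synthase subunits, 2 differences were positive and 17 negative, 0 passed and the median was -0.21. In 9 of them every knockout clone was below every control and in 1 above, beside the 13.7% and 12.2% of all tested rows. ATP5B, a catalytic subunit of ATP synthase, had -0.67 (limma adjusted p = 0.0567) and ETFA, an electron carrier of fatty acid oxidation, -0.53 (limma adjusted p = 0.106). With a common median these were -0.18 and -0.31. Over all 929 tested rows annotated to the mitochondrion, members left out, 23 rose and 4 fell, with a median of -0.0007. Of all tested rows 1.2% rose and 0.373% fell. These values are RNA levels of single genes, and the number of mitochondria per cell was not measured.

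**Figure D5:**
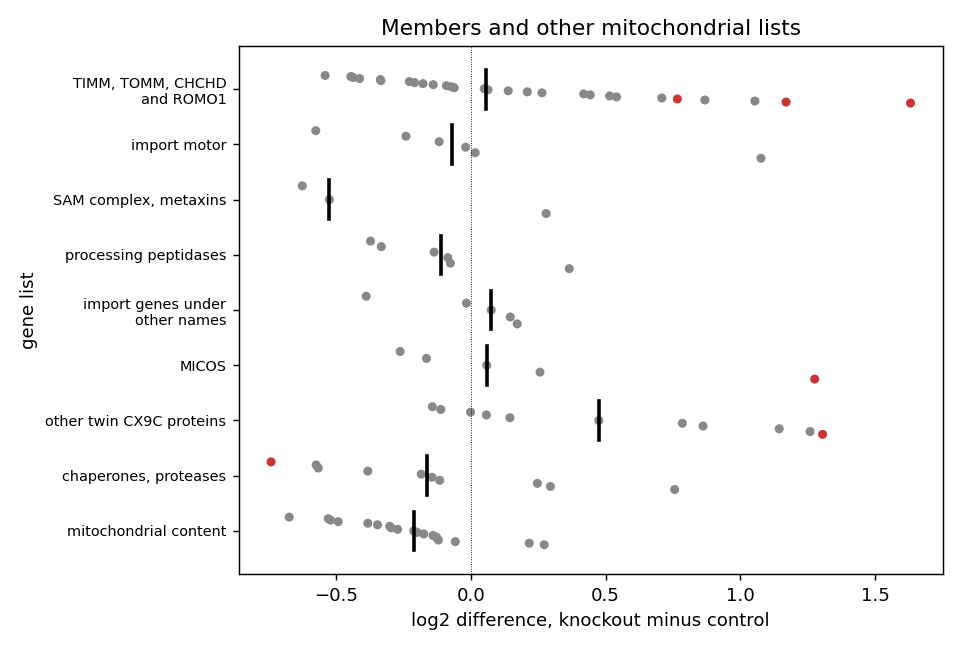
Log2 differences, knockout minus control, of the tested members and of the tested genes in 8 other lists, 1 point per gene, red where the test was passed, with a bar at each median. The twin cysteine proteins outside the rule have a median of 0.47, and the markers of mitochondrial content a median of -0.21.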

How the data were processed

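Illumina bead arrays of 6 U2OS clones (3 control, 3 MBTD1 knockout) gave 34694 rows, already averaged over probes of a gene for 6 members. These members were CHCHD7, TIMM23, TIMM23B, TOMM20, TOMM40L and TOMM7, and whether their single probes went the same way is not known. The authors deposited linear bead intensity before background correction or normalization, with a detection p-value per the file headers, a bead standard error and a bead number. They also deposited log2 values, which match quantile-normalized log2 intensities to 4.99e-09 (median 6.4256 on each array). The tools lumi and limma appear in the submitters' processing notes, with no version. Other steps: not given in the sources used here. Columns of other samples numbered 0.

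Here limma 3.58.1 in R 4.3.3 corrected background (normexp, fitted on the 27316 gene rows, 78.7%, with a detection p at a whole step of the 770 negative controls on all arrays, tolerance 0.001 of a step; the default fit is an alternative), added an offset of 16, took log2 and quantile normalized. Rows with detection p under 0.05 on at least 3 of 6 arrays were tested, 13145 in all, with 21457 not tested and 92 control rows left out. Groups were compared with lmFit and eBayes (2-sided) and Benjamini-Hochberg adjustment over all tested rows at 0.05. The number of arrays limits the precision. The labels do not say that same-numbered clones are paired, so no block was used in the main fit. As a check, same-numbered clones did not deviate together (r of deviations 0.07, 0.02 and 0.02).

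The members and lists were chosen with earlier results of these data known. Named in full were called members and, per role, the 3 largest and the smallest differences, and in other lists the called genes and the 2 largest. A planned description by protein length was replaced by gene span, chosen after the files were seen, since no protein table was used here. Alternatives were the default fit, the deposited log2 values, an offset of 50, 2 other scalings, no filter, a stricter filter, a replicate block and leaving out each clone. The code was tested on simulated data. Figures were drawn with Python 3.11.15 and matplotlib 3.10.9.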

Additional observations from a re-analysis of the deposited data

How the results depend on the processing

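Of 28 tested members 24 kept their direction in every alternative that tested them, 14 for most and 13 for CHCHD7, TIMM17A and TIMM23B, which the stricter filter left out. The exceptions were CHCHD2 (0.38 with a common median and 0.17 with cyclic loess), TOMM22 (0.11 and 0.028, and -0.21 to 0.070 when 1 clone was left out, highest without knockout 3), TOMM70A (-0.0027 without control 1, up to 0.14) and TIMM9 (-0.029 without knockout 1, up to 0.33). ROMO1 passed in 7 of 14 alternatives, with differences of 1.38 to 2.40 and limma adjusted p of 0.00191 to 0.132, TIMM8B in 5 (0.07 to 0.86, adjusted p 0.0229 to 0.182) and CHCHD5 in 4 (0.31 to 1.40, adjusted p 0.0103 to 0.184). The members past the threshold numbered 3 as reported. There were 0 with the default background fit (13 at an unadjusted p under 0.05), 0 in the deposited log2 values (14), 0 with an offset of 50 (13) and 0 without a filter (14 of 33). There were 5 with a common median, 5 with detection p under 0.01 on all 6 arrays, and 0 to 6 when 1 clone was left out. Over all tested rows 207 passed as reported, 0 with the default fit, 64 in the deposited log2 values, 61 with an offset of 50, 4 without a filter, 392 with a common median, 361 with the stricter filter and 0 to 578 when 1 clone was left out. The split of 158 higher and 49 lower became 344 and 48 with a common median and 249 and 39 with cyclic loess. The median of the members, 0.06, was 0.18 with a common median, 0.15 with cyclic loess and 0.0002 to 0.07 when 1 clone was left out. With a common median and with cyclic loess alike, 17 members had positive and 11 negative differences. With the replicate number as a block, which is only a number here, 122 rows and 2 members passed, ROMO1 (adjusted p = 0.0325) and TOMM7 (0.0388), while CHCHD5 (0.0773) and TIMM8B (0.0826) did not. The cause of these changes was not tested. The filters change how many rows are adjusted for, but not only that. In limma the unadjusted p of ROMO1 moved too, from 7.68e-05 as reported to 0.000659 without a filter. Dim members such as TIMM8B and TIMM17A are limited by signal close to background.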

Other observations

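Another 10 rows without a gene symbol of the set are described in the deposited table as similar to a member, and 3 of them passed the detection filter. LOC390298, described as similar to TIMM17B, had log2 levels of 5.30, 4.90 and 5.15 in the controls and 5.53, 5.55 and 5.17 in the knockouts, with a difference of 0.30 (limma adjusted p = 0.308). LOC645317 and LOC646630, described as similar to CHCHD2, had differences of 0.08 and -0.01, on the same side of the threshold as CHCHD2 (-0.09).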
